A study of Mus musculus with 146 samples.

Results

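The tubulin isotypes described here were 10 genes, chosen by symbol from the 52605 gene symbols listed for each cell. They comprised 4 alpha-tubulins (Tuba1a, Tuba1b, Tuba1c and Tuba4a), 5 beta-tubulins (Tubb2a, Tubb2b, Tubb3, Tubb4b and Tubb5) and the gamma-tubulin Tubg1. Another 10 tubulin genes of the files are given only for comparison. RNA had been measured by Smart-seq2, a full-length single-cell method, in 146 libraries of single germ cells picked by mouth pipette from ovaries of newborn C57/BL6J littermates at D0.5, with no treatment and no genetic change. Every cell thus carried the same genotype and age. The labels tie no cell to an animal or plate, so all cells were 1 sample and no test was made between groups of cells.

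Before any result, 7 pairs of libraries were taken to hold the same cell, from their values alone, since the labels do not name them as repeats. Their log2(TPM + 1) values correlated at 0.989 to 0.996, whereas no other 2 libraries exceeded 0.844, and no pair was identical. Each pair was averaged to 1 cell, and 1 further cell with Ddx4 listed at 0 TPM was left out by the rule that selected germ cells, so that the 146 libraries less these 8 made up the cells analysed. In that library Tubb4b was also listed at 0 TPM and Tubg1 at 74.3 TPM. These cells had between 4074810 and 26855273 reads assigned to genes per library (median 9498860) and had the germ cell gene Dazl, which the rule did not use, at 1 TPM or more in every cell kept. Of 6 pregranulosa markers, 5 had a median of 0 TPM, and their summed level ranged from 0 to 81.6 TPM with a median of 0.331 TPM. Libraries positive for the pregranulosa gene Foxl2 by PCR had been removed before sequencing. Stroma markers summed to a median of 1.03 TPM (highest cell 873.2), and nerve or glia markers to 0.875 TPM (highest 102.1), with Elavl3, Snap25 and Sox10 at means of 0.0553 to 0.238 TPM. Globin mRNA of blood cells had a median of 48.96 TPM over cells but reached 324500 TPM in 1 cell, which lowers every other TPM value of that cell. Shares within a tubulin family do not depend on such scaling.

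Microtubules are built from heterodimers of alpha- and beta-tubulin, and gamma-tubulin sits in the ring complexes that nucleate them. Mammals encode each family by several genes whose products differ mostly in an acidic carboxy-terminal tail, where motors, severing enzymes and modifying enzymes act. In the neonatal ovary microtubules run through the bridges between sister germ cells, and organelles move along them as cysts break down into primordial follicles. Tubulin mRNA is also controlled by its own product, since the factor TTC5 binds the first residues of a nascent alpha- or beta-tubulin chain and recruits mRNA decay when free tubulin is in excess.

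The ends of the coding sequences show where the isotypes part. The last 60 coding bases (20 codons) before the stop codon are given for Tuba4a and the beta-tubulins on which the results turn, taken from GENCODE M21 on GRCm38 (mm10), 5′ to 3′ on the coding strand, with codons for glutamate or aspartate in capitals. The Tuba4a tail lies at chr1:75215625-75215684 on the minus strand. Among the beta genes the tail lies at chr2:25222311-25222370 (minus) in Tubb4b, at chr17:35834985-35835044 (minus) in Tubb5, at chr13:34127474-34127533 (minus) in Tubb2b and at chr8:123421620-123421679 (plus) in Tubb3.
Tuba4a: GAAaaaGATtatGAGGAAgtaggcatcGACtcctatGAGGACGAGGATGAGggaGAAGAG
Tubb4b: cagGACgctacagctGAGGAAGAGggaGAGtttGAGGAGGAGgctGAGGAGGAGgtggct
Tubb5: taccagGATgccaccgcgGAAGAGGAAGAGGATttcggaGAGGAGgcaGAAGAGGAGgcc
Tubb2b: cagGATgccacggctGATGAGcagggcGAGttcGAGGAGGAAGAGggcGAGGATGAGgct
Tubb3: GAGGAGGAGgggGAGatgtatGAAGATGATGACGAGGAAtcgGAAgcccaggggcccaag

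Of the 20 tail codons 12 were acidic in Tuba4a and 11 in each of the 5 beta members, against 4 in Tubg1. The tails of Tubb2a and Tubb2b differed at 3 of 60 bases, and those of Tubb4b and Tubb5 at 25 of 60. Tuba4a ends in gag, a codon for glutamate, in place of the tyrosine codon of most alpha-tubulins, whose residue is removed and re-added in the detyrosination cycle. The first 4 codons, which encode the residues read by TTC5, were atgcgcgagtgc in Tuba4a, atgagggagatc in Tubb4b and Tubb3, and atgagggaaatc in Tubb5. Tubg1 begins instead with atgccgagagaa. The whole coding sequences of Tuba1b and Tuba1c, both on chromosome 15, were 97.9% identical.

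Likeness of sequence also limits how surely reads were assigned. Of the 31-base stretches of the coding transcript, 69.5% in Tuba1b, 62.1% in Tuba1c and 59.4% in Tuba1a occur in another tubulin gene, so their estimates depend on how the quantifier shared out such reads. In Tubb4b 957 of 1568 stretches were shared, most of them with the pseudogene Tubb4b-ps1, whose mean was 0.0262 TPM and which reached 1 TPM in no cell. Tubb2a and Tubb2b shared 51.1% and 37.5% with each other. Stretches shared with other tubulins were fewest in Tuba4a (0.6%), Tubb5 (1.3%) and Tubb3 (3.3%).

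Tubb4b, a broadly expressed beta-tubulin, was the member found most evenly. Its level, in TPM (a value per transcript length that sums to the same total in each library), was lowest at 0.229, had a median of 219.2 and a mean of 247.8 ± 127.3 (SD over all cells kept), and was highest at 726.0 TPM. It was at 1 TPM or more in all but 2 cells (98.6%, exact Clopper-Pearson 95% interval 94.9 to 99.8%, counting error only). Its coefficient of variation of 0.514 lay below the median of 1.12 over the 7436 coding genes with a mean of 10 TPM or more. The SD of log2(TPM + 1) of Tubb4b between cells was 1.25.

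Tuba1b and Tuba1c, the main alpha-tubulins of dividing and non-neuronal cells, had similar means but wide ranges. Tuba1b ranged from 0 to 4570 TPM, its median being 92.6 and its mean 190.5 TPM, and was at 1 TPM or more in all but 11 cells (92.03%, 86.2 to 95.95%). Tuba1c ranged from 0 to 4797 TPM, its median being 53.6 and its mean 203.6 TPM, and was at 1 TPM or more in 93 cells (67.4%, 58.9 to 75.1%). The 5 highest cells held 39.3% of all Tuba1b TPM and 40.5% of all Tuba1c TPM, against 8.79% for Tubb4b. Both genes were at 1 TPM or more in 92 cells, Tuba1b without Tuba1c in 35, Tuba1c without Tuba1b in 1 and neither in 10. The SD of log2(TPM + 1) between cells was 2.51 for Tuba1b and 3.70 for Tuba1c.

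Tubg1, the gamma-tubulin, had a median of 30.8 TPM, a mean of 35.96 TPM and a highest value of 216.4 TPM, and was at 1 TPM or more in all but 36 cells (73.9%, 65.8 to 81.01%). Tubb5, a widely expressed beta-tubulin, had quartiles of 0.202 and 28.6 TPM, a mean of 22.6 TPM and a highest value of 272.9 TPM, and was at 1 TPM or more in 89 cells (64.5%, 55.9 to 72.5%). The other 5 members were low. Tuba4a had a mean of 8.05 TPM and was at 1 TPM or more in 35 cells, Tubb2b in 41 cells at a mean of 4.57 TPM, and Tubb2a in 32 cells at 3.75 TPM. Tubb3, the beta-tubulin used as a marker of neurons, had a mean of 3.23 TPM and never exceeded 31.8 TPM, although 51 cells were at 1 TPM or more. Tuba1a, the alpha-tubulin of developing neurons, was lowest, with a mean of 1.88 TPM and only 30 cells above 0. In the order of means Tuba1c, Tuba1b and Tubb4b lay within 1 SD of each other, and so did the 5 low members.

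**Figure D1:**
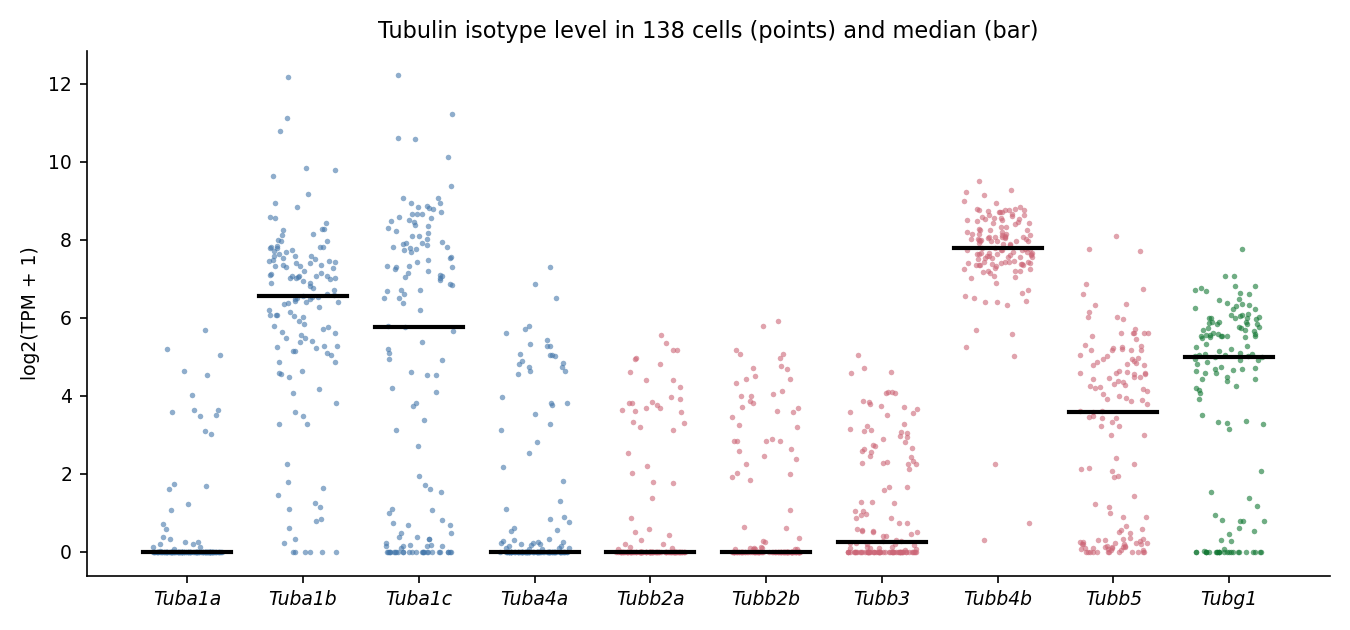
Level of each tubulin isotype as log2(TPM + 1); each point is 1 cell, bars mark medians, and colours separate alpha (blue), beta (red) and gamma (green) genes. Tubb4b forms a compact band around its median of 219.2 TPM, whereas Tuba1b and Tuba1c spread from 0 to 4570 and 4797 TPM and Tuba1a is above 0 in 30 cells.

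A cell used a median of 5 of the 10 members at 1 TPM or more, with 1 member in 5 cells and all 10 in another 5. Among the tubulin genes outside the list, Tuba3a, an alpha-tubulin best known from testis, had a mean of 39.2 TPM and was at 1 TPM or more in 78 cells, more than Tuba1a and Tuba4a. Tube1 had a mean of 13.4 and Tubd1 of 7.45 TPM, the epsilon- and delta-tubulins of centrioles. Tubb1, of platelets, was at 0 TPM in every cell.

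Usage was computed in each cell as the percentage of the summed TPM of the family's listed members. Beta-tubulin usage had 1 leading gene. The Tubb4b share had a median of 92.7% (quartiles 83.3 and 97.2%, range 0.628 to 100%) and was the largest in all but 6 cells (95.7%, 90.8 to 98.4%). Tubb5 was the largest in 5 cells and had a median share of 4.16%. Tubb3 was the largest in 1 cell, cell 67, at 3.77 TPM, where the 5 beta members summed to 4.58 TPM, the lowest of all cells. That library had a mitochondrial share of 23.9% and did not pass the TPM reading of the quality limits. Tubb2a and Tubb2b were the largest in no cell (upper bound 2.64%).

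Among the 4 alpha members, usage was divided mainly between 2 genes. The 4 cells with all 4 alpha members at 0 TPM were left out. Tuba1b had a median share of 49.6% (quartiles 35.5 and 95.6%) and was the largest in 69 cells (51.5%, 42.7 to 60.2%). The Tuba1c median was 40.8% (quartiles 0.808 and 58.5%), and it was the largest in 61 cells (45.5%, 36.9 to 54.4%). Tuba4a was the largest in 4 cells and Tuba1a in none. With all alpha-tubulin genes of the files in the sum, Tuba3a included, the median shares were 41.8% for Tuba1b and 35.1% for Tuba1c. Tuba1b was then the largest in 44.1% of cells and Tuba1c in 43.4%, with another gene leading in the rest. Of the summed TPM of the 4 listed members alone, Tuba1b held over 90% in 43 cells, and Tuba1c in 8. The SD between cells was 32.3 percentage points for the Tuba1b share and 31.4 points for that of Tuba1c. Between the libraries of a joined pair these shares differed by at most 5.46 and 1.53 points, which covers repeat libraries only and is small by the choice of pairs for their likeness. With the 7 pairs kept as separate libraries the median shares were 51.8% for Tuba1b, 38.8% for Tuba1c and 92.8% for Tubb4b.

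Alpha-tubulin summed to a median of 166.0 TPM and beta-tubulin to 254.4 TPM. The log2 ratio of alpha to beta per cell had a median of -0.60 (quartiles -1.78 and 0.47), and alpha exceeded beta in 48 cells (35.8%). With all alpha and beta tubulin genes of the files in the sums, Tuba3a included, the median was -0.38.

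Cells were then ordered by the first principal component of 20 genes of oocyte development and meiosis, none of them a tubulin. The study clustered its cells on 20 marker genes. All of those used here but Taf4b are named as markers in its text, and Taf4b was added here as the last. Cells at the start were high in the meiotic genes Sycp2, Stag3 and Taf7l. Clustering on the same genes gave 19 cells in cluster 1, 87 in cluster 2 and 32 in cluster 3. Clusters are numbered along the order and are not a measured time. Cluster 3 had more genes detected (median 14580, against 12420 in cluster 1 and 12080 in cluster 2) and a smaller share of spike-in reads (median 0.266%, against 0.345 and 0.443%). The mitochondrial share had medians of 5.20, 6.19 and 7.46% in clusters 1, 2 and 3 (rho 0.28 with the order). Summed stroma markers had medians of 4.36, 1.008 and 0.419 TPM, and nerve or glia markers of 12.9, 0.538 and 2.18 TPM. Those of pregranulosa markers were 0.301, 0.332 and 0.566 TPM, and of blood or endothelial markers 34.9, 72.1 and 30.6 TPM. The cell with 324500 TPM of globin was in cluster 1. Library numbers were spread unevenly over the clusters. Among cells 26 to 76, cell 60 alone was in cluster 3. The labels do not say what the numbers stand for. The part of these in the results was not tested. TPM are relative to all RNA of a library, so values divided by the spike-ins are given for the members together, for the lists of partners, and for single genes named below where their direction changes.

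Along the order, usage among the 4 listed alpha members was mostly Tuba1b at the start. At the end it was divided between Tuba1b and Tuba1c, with Tuba1c ahead. Tuba3a was not in that sum. Its mean was 53.6, 32.5 and 48.8 TPM in clusters 1, 2 and 3, against 76.2, 143.2 and 386.7 TPM for Tuba1b. Shares by cluster with Tuba3a counted are not given here, and the Tuba1b share of cluster 1 would be lower with it. In cluster 1 the median Tuba1b share was 95.4% and that of Tuba1c 0.281%. In cluster 2 the medians were 60.3% and 25.9%, and in cluster 3 they were 39.96% and 56.3%. Tuba1b was the largest of the 4 alpha members in 15 of 17, 49 of 85 and 5 of 32 cells. Tuba1c was the largest in 0 of 17, 34 of 85 and 27 of 32. The share of Tuba1c correlated with position along the order with a Spearman rho of 0.67 and that of Tuba1b with -0.54, across cells from 1 litter, given as a description. Within cluster 2 both patterns coexisted, since the quartiles of the Tuba1c share there were 0.467 and 58.7%.

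The Tuba1c level differed in the same direction. It was 0 to 22.0 TPM in cluster 1 (median 0, mean 2.95), 0 to 1561 TPM in cluster 2 (median 29.1, mean 146.2) and 49.6 to 4797 TPM in cluster 3 (median 249.9, mean 478.9). Thus every cell of cluster 3 lay above every cell of cluster 1. At 1 TPM or more were 5 of 19 cells (26.3%, exact interval 9.15 to 51.2%), 56 of 87 (64.4%, 53.4 to 74.4%) and 32 of 32 (lower bound 89.1%). The log2 ratio of mean TPM + 1 was 5.22 between clusters 2 and 1, 1.71 between 3 and 2, and 6.93 between 3 and 1. As a difference of mean log2 values it was 3.39 between clusters 2 and 1 and 3.87 between 3 and 2, so that which step is larger depends on the summary. Without the 1 cell with 4797 TPM the log2 ratio was 6.43 between 3 and 1, and with the pairs kept separate 6.94. Without the 4 cells highest in Tuba1b and Tuba1c it was 6.11. With clusters from variable genes it was 4.37 between 2 and 1, 0.78 between 3 and 2, and 5.15 between 3 and 1.

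Tuba1b was higher too, but by less. Its median was 43.5, 83.2 and 173.0 TPM in clusters 1, 2 and 3, with ranges of 0 to 303.4, 0 to 1775 and 10.9 to 4570 TPM that overlap. The log2 ratio between clusters 3 and 1 was 2.33, 1.71 without its highest cell and 1.11 on the coding transcript alone. Tubb5 had medians of 3.79, 2.76 and 29.3 TPM and was at 1 TPM or more in 11 of 19, 46 of 87 and 32 of 32 cells. Its log2 ratio between clusters 3 and 1 was 1.82. It was 2.62 as a difference of mean log2 values, 2.68 when divided by the spike-ins and 1.43 with Ward clusters.

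Tubb4b had the smallest ratio of the 10 members between clusters 3 and 1. Its median was 250.5, 203.0 and 280.4 TPM in clusters 1, 2 and 3. The log2 ratio between clusters 3 and 1 was 0.18, below the 1.5-fold (0.585 on the log2 scale) counted as a difference here. As a difference of mean log2 values it was -0.17. Divided by the spike-ins, Tubb4b was at 0.94, past 1.5-fold, with a median of 0.46 over all genes. Its share of beta-tubulin was nonetheless lower in cluster 3, with medians of 93.6, 93.2 and 80.3%, as the shares of Tubb5 (2.45, 1.34 and 9.34%), Tubb2b (0, 0 and 2.29%) and Tubb2a (0, 0 and 1.99%) were higher. The Tubb2a difference between clusters 3 and 1 was 0.136 points with Ward clusters and 0.945 points with clusters from variable genes. Tubg1 had medians of 20.4, 31.4 and 36.3 TPM and a log2 ratio of 0.65 between clusters 3 and 1, which was below 1.5-fold without 1 cell of cluster 3 at 133.6 TPM (0.55), with Ward clusters (0.57) and with clusters from variable genes (0.36).

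The low members were each detected in a larger part of cluster 3 than of clusters 1 and 2, though Tubb3 differed little between clusters 3 and 2. Tubb2b was at 1 TPM or more in 3 of 19, 14 of 87 and 24 of 32 cells, with means of 1.32, 2.85 and 11.2 TPM. Its larger step lay between clusters 3 and 2 here, but between 2 and 1 with clusters from variable genes (log2 ratio 2.10, against 0.55 between 3 and 2). Tubb2a was at 1 TPM or more in 6 of 19, 7 of 87 and 19 of 32 cells, with means of 4.33, 0.975 and 10.9 TPM, and so was lowest in cluster 2. Tuba1a was at 1 TPM or more in 1 of 19, 3 of 87 and 14 of 32 cells, with a highest cell of 50.2 TPM. Tuba4a had means of 11.8, 4.19 and 16.3 TPM, though with clusters from variable genes it was higher at both steps (0.67 and 0.66). Its log2 ratio between clusters 3 and 1 of 0.43 was 1.28 without the highest cell of cluster 1 and -0.01 without the highest cell of cluster 3, at 156.9 TPM. Tubb3 was at 1 TPM or more in 5 of 19, 33 of 87 and 13 of 32 cells (26.3, 37.9 and 40.6%). Its means of 1.61, 3.81 and 2.62 TPM were highest in cluster 2, and its rho with the order was 0.08. Its log2 ratio of -0.41 between clusters 3 and 2 was 0.59 when divided by the spike-ins.

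Counted together, 7 of 10 members were at least 1.5-fold higher in cluster 3 than in cluster 1 and 0 were lower, while of all 11744 coding genes with a mean of 1 TPM or more 27% were higher and 36.6% lower. The median log2 ratio was 1.49 over the members and -0.19 over all genes. Divided by the spike-ins, the median of all genes shifted to 0.46 between these clusters, and 10 of 10 members were higher, as were 45.7% of all genes (18.8% lower). Over the 9 alternatives between 7 and 10 members were higher and 0 lower, not always the same ones, since Tubg1 was below 1.5-fold in 2 of them.

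Between clusters 3 and 2, 7 members were higher and 0 lower (all genes 16% and 31%). When divided by the spike-ins 10 were higher and 0 lower (all genes 52.1% and 8.92%), while with clusters from variable genes 5 were higher and 0 lower (18.8% and 27.1%), as Tubb5 (-0.17) and Tubb2b (0.55) were no longer past 1.5-fold. Between clusters 2 and 1, 5 were higher and 2, Tuba4a and Tubb2a, lower (all genes 25.4% and 21.7%), and these calls held less well. The ratios of Tubb2b (0.49), Tubb5 (0.49) and Tuba4a (-0.46) were below 1.5-fold without 1 cell each. On coding transcripts Tuba1b (0.47) and Tubb2b (0.50) were below it, and as a difference of mean log2 values Tubb2b (0.13), Tubb5 (0.10) and Tubb3 (0.48). Per spike-in, 3 were higher and 2 lower (all genes 20.2% and 29.3%), without Tubb3 (0.38) and Tubb5 (0.54). With clusters from variable genes 7 were higher and 1 lower (17.3% and 23%). There Tuba4a (0.67) and Tubb3 (-0.22) turned direction, and Tubb4b (0.60) and Tubg1 (0.76) were past 1.5-fold. Over the 9 alternatives between 2 and 7 members were higher and between 1 and 3 lower in this comparison. Of the 87 cells of cluster 2, 47 fell in the first, 30 in the second and 10 in the third of the clusters from variable genes.

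**Figure D2:**
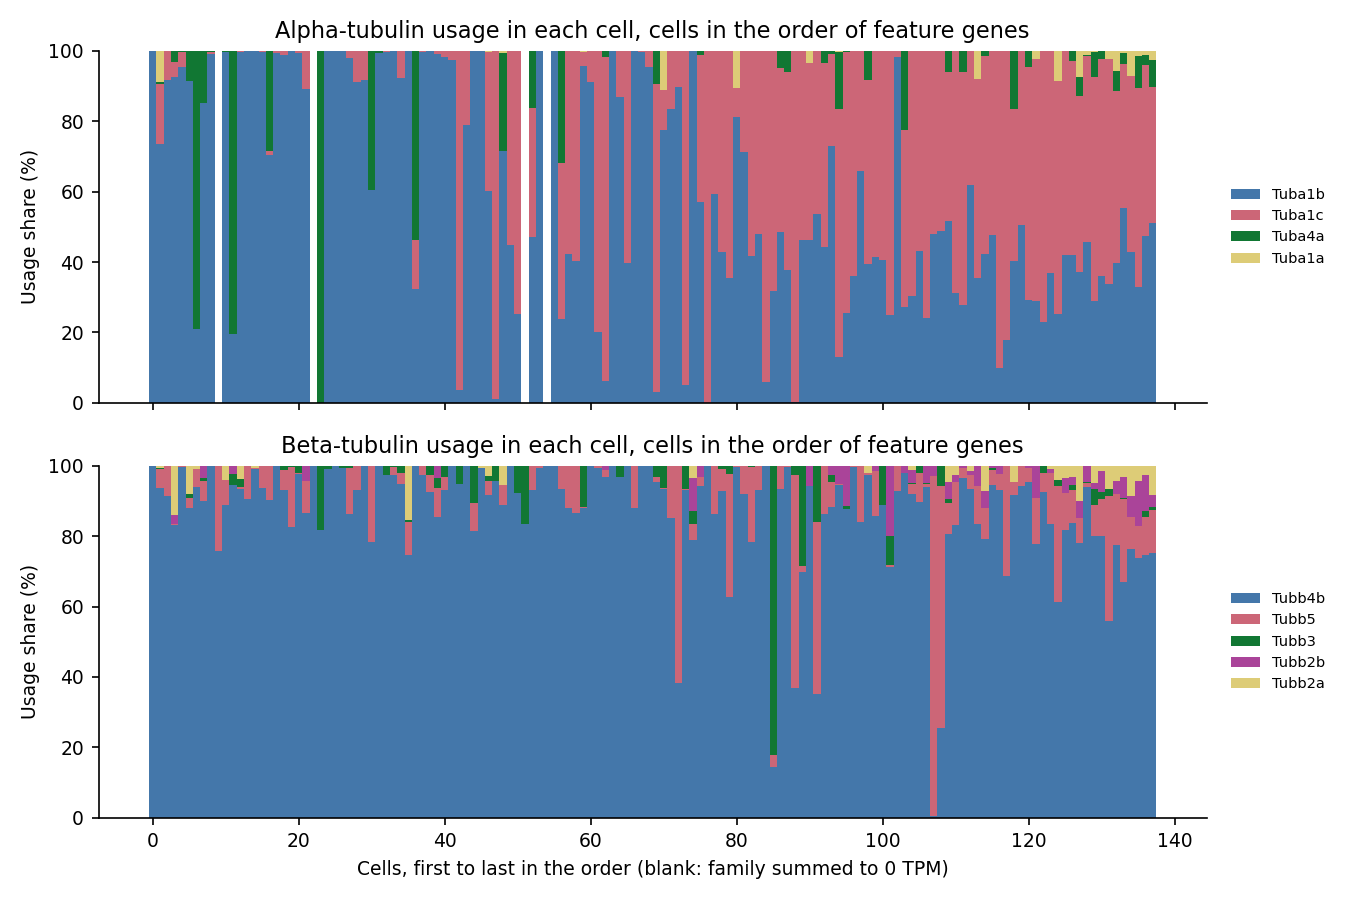
Usage share of each alpha gene (top) and beta gene (bottom) in percent of the summed TPM of the listed members of its family. Each bar is 1 cell, from first to last in the order. Blank bars are the 4 cells with all 4 alpha members at 0 TPM. Tuba1b fills most early cells and Tuba1c over 40% of most late ones, whereas Tubb4b leads in all but 6 cells, with a part taken by Tubb5, Tubb2a and Tubb2b at the end.

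The alpha to beta ratio of the listed members followed. Its median log2 value was -2.17 in cluster 1 (17 cells), -0.82 in cluster 2 (85 cells) and 0.42 in cluster 3 (32 cells), and alpha exceeded beta in 2, 25 and 21 of these cells. The median alpha sum was 47.8, 132.3 and 442.4 TPM, and the median beta sum 262.9, 235.6 and 353.4 TPM. Tuba3a, at means of 53.6, 32.5 and 48.8 TPM, was not in the alpha sums, whose means were 91.6, 293.8 and 889.2 TPM. Ratios by cluster with it counted are not given here. On coding transcripts alone the median log2 ratios were -2.11, -0.94 and 0.18, and alpha exceeded beta in 37 cells in all.

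**Figure D3:**
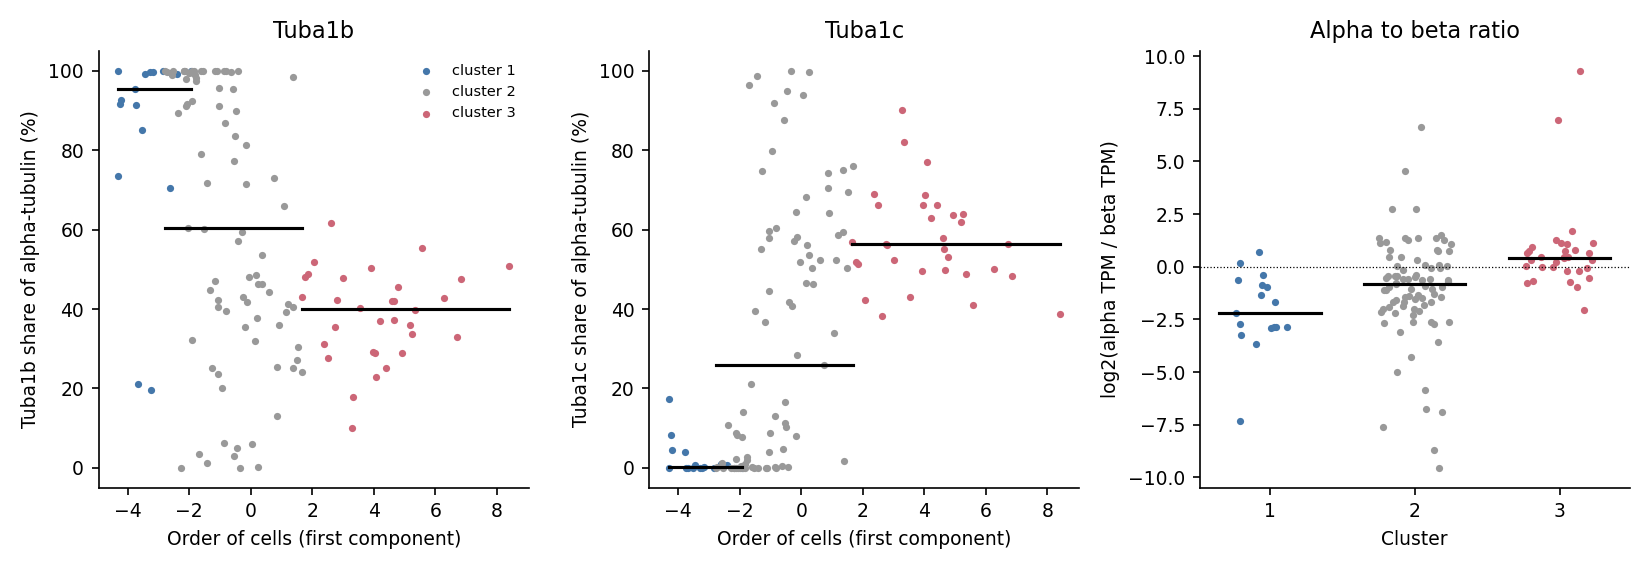
Left and middle, share of Tuba1b and Tuba1c in alpha-tubulin (percent) against the order of cells (first component, arbitrary units), coloured by cluster, with lines at cluster medians (Tuba1b 95.4, 60.3 and 39.96%; Tuba1c 0.281, 25.9 and 56.3%). Right, log2 ratio of alpha to beta TPM of the listed members by cluster, with medians of -2.17, -0.82 and 0.42.

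Part of the Tuba1b and Tuba1c TPM came from annotated transcripts with a retained intron. Each of these genes has a coding transcript (1743 bases in Tuba1b, 1982 in Tuba1c) and a shorter one annotated as a retained-intron transcript (526 and 781 bases). The share of the coding form was estimated from the gene length listed in each cell, with a formula that was fitted to those lengths and is not given by the authors. Among cells with 30 reads or more, it had a median of 100% in Tuba1b (120 cells, lower quartile 98.5%) and of 89.7% in Tuba1c (88 cells, lower quartile 62.5%). It was below 50% in 9 cells for Tuba1b and in 15 for Tuba1c. For Tubb4b it was over 90% in all cells but 1 and for Tubg1 in 81 of 99. The size of these shares rests on that formula, which was not checked independently.

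High values were often, though not always, of the shorter form. Of the 10 highest cells for each gene, 4 were below 50% coding for Tuba1b (median 99.96%) and 7 for Tuba1c (median 39.7%). In the 4 cells with the highest sum of Tuba1b and Tuba1c, which carry neighbouring library numbers (10, 12, 13 and 14), the coding form made up 0 to 8.12% of Tuba1b and 3.77 to 22.0% of Tuba1c. Counting the coding form alone, the mean was 115.2 in place of 190.5 TPM for Tuba1b and 105.4 in place of 203.6 TPM for Tuba1c. Of the 31-base stretches of the shorter forms, 46.8% in Tuba1b and 46.1% in Tuba1c occur in another alpha member, so a high value of both in 1 cell can rest on shared reads. The 2 cells with the highest values had almost no Tubb4b, at 3.76 and 0.229 TPM, the former with Ddx4 at 7.49 TPM, the lowest of the kept cells, and the latter with Ddx4 at 499.3 TPM. The mitochondrial share of reads in cells 10, 12, 13 and 14 was 18.8, 15.8, 10.2 and 20.9%, against a median of 6.26% over the kept libraries. Cell 14 did not pass the TPM reading of the quality limits. The part of library quality in these values was not tested. On coding forms alone the medians of the Tuba1c share were 0, 25.9 and 52.9% in clusters 1, 2 and 3, and those of Tuba1b 95.5, 65.2 and 40.8%.

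**Figure D4:**
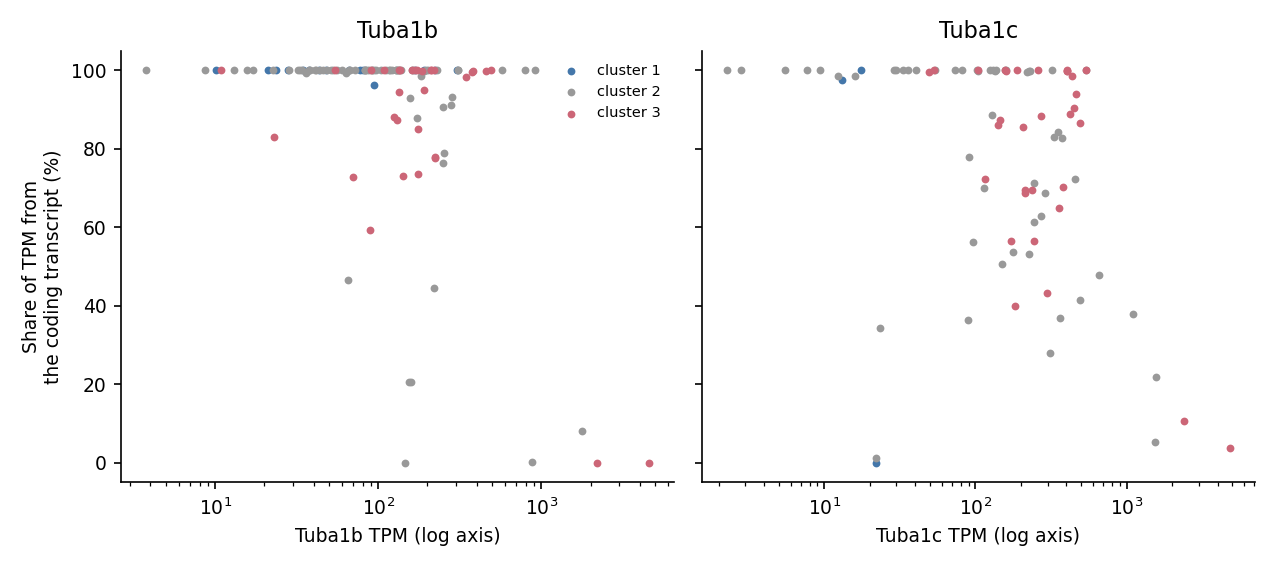
Share of TPM from the coding transcript (percent) against TPM (log axis) for Tuba1b (120 cells) and Tuba1c (88 cells) with 30 reads or more, coloured by cluster. Most cells lie at or near 100% for Tuba1b, and the 4 cells with the highest sum of the genes lie at or below 22.0% for both.

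Across cells, members were related weakly. Of the 45 pairs of members 42 had a positive Spearman rho of TPM (median 0.27). The highest was 0.64 between Tuba1b and Tuba1c, which share reads, followed by 0.49 between Tuba1b and Tubb5. Tubb4b was closest to Tubg1 (0.39) and Tuba4a (0.36), and Tubb3 lay between -0.07 and 0.15 with every other member. Several rho values with technical measures were of similar size, among them -0.52 between Tubb4b and the spike-in share and 0.55 between Tubb2b and the number of genes detected. Summed pregranulosa, stroma, blood or endothelial, and nerve or glia markers gave rho values between -0.20 and 0.21 with the members.

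Among 6671 coding genes with a mean of 10 TPM or more that reached 1 TPM in 50% of the cells or more, the genes closest to Tuba1c were Cd164l2 (rho 0.78), Ldhb (0.76), a lactate dehydrogenase subunit, and Nlrp4f (0.75), of an oocyte gene family. For Tuba1b they were Tuba1c, the glycine transporter gene Slc6a9 (0.52) and Zbed3 (0.51). Tubb4b lay closest to Ywhaz (0.54), Insig1 (0.48) and the small GTPase gene Cdc42 (0.48). For Tubb5 they were Tuba1b (0.49), Ldhb (0.48) and Ift43 (0.48), and for Tubg1 Sox15 (0.42), Mtmr14 (0.41) and Vac14 (0.41). The median rho with all candidates lay between -0.03 and 0.12 for these 5 members.

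Of 20 genes that fold tubulin, 8 were over 1.5-fold higher and 7 lower in cluster 3 than in cluster 1 (all genes 27% and 36.6%), with a median log2 ratio of -0.07. Per spike-in, 11 were higher and 4 lower (all genes 45.7% and 18.8%), with a median of 0.72. Newly made tubulin is folded in the chaperonin TRiC, to which prefoldin delivers it, and is joined into heterodimers by the cofactors Tbca to Tbce with Arl2. The highest means were those of the cofactor Tbca (808.0 TPM, log2 ratio 0.80) and the prefoldin subunit Pfdn6 (705.5 TPM, 0.86). A division of the list by complex was made after its values were seen and is given as a description. The 8 TRiC subunit genes (Cct6a mean 592.6, Tcp1 587.7 TPM) were all lower in cluster 3 than in cluster 1, 7 of them by over 1.5-fold, with a median log2 ratio of -1.36. The lowest was Cct7, with means of 574.4, 412.7 and 159.2 TPM in clusters 1, 2 and 3 (log2 ratio -1.85). Of the 12 prefoldin and cofactor genes 8 were over 1.5-fold higher and 0 lower, with a median of 0.76; with Ward clusters 6 were higher, with clusters from variable genes 4 (median 0.47), and divided by the spike-ins 11 (median 1.56). They included Pfdn4 (95.3, 367.3 and 731.8 TPM, log2 ratio 2.93), Arl2 (1.20) and Tbcb (1.06). Divided by the spike-ins, the TRiC median was -0.54 while all genes shifted to 0.46, 4 TRiC genes in place of 7 were over 1.5-fold lower, and Cct2 (0.49) turned above 0.

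**Figure D5:**
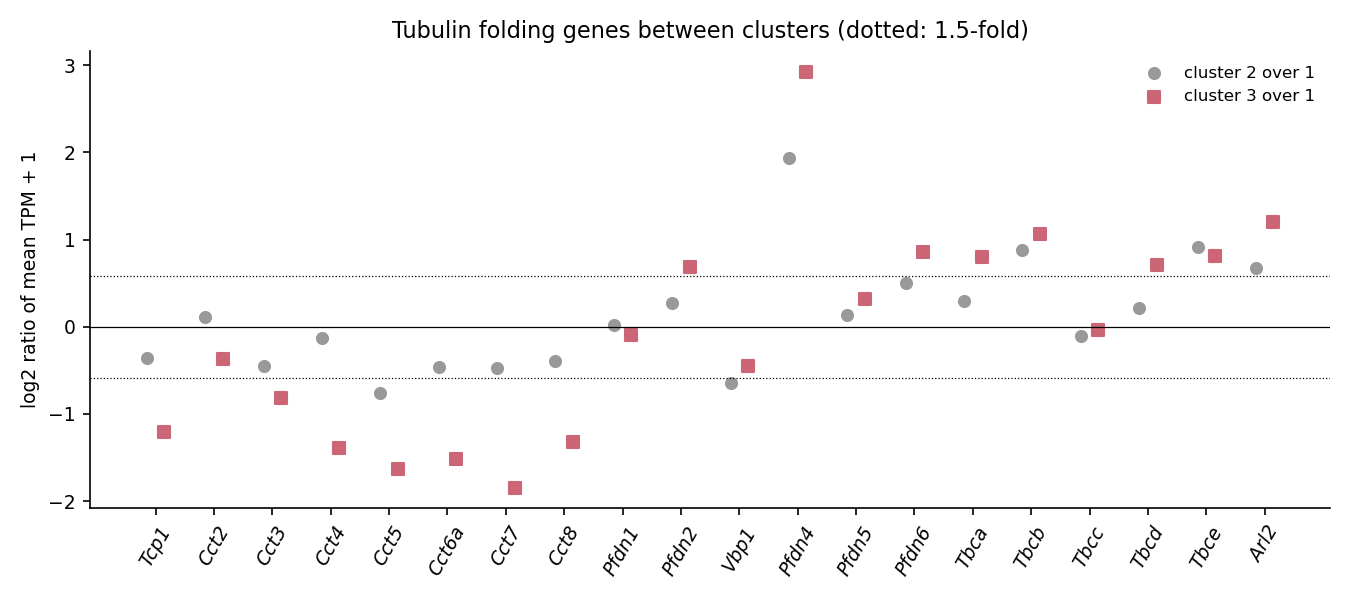
Log2 ratio of mean TPM + 1 for 20 tubulin folding genes between clusters 2 and 1 (grey circles) and 3 and 1 (red squares); dotted lines mark 1.5-fold. The 8 TRiC subunit genes at the left lie below 0 in cluster 3 (-0.37 to -1.85), and Pfdn4 is highest at 2.93.

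The other lists of partners had no common direction. Divided by the spike-ins, all genes were 45.7% higher and 18.8% lower between clusters 3 and 1, and the counts of each list under that scaling are given beside those in TPM. Of 4 genes of tubulin mRNA autoregulation 0 were higher and 3 lower in cluster 3 than in cluster 1 (median -0.69), among them Scaper (88.5, 55.3 and 30.2 TPM), a partner of TTC5; Ttc5 itself had a log2 ratio of -0.41. Divided by the spike-ins, 0 were higher and 1 lower (median 0.02), and Ttc5 was at 0.48. Of 9 genes of the gamma-tubulin ring complex 0 were higher and 5 lower (median -0.68), with Tubgcp4 most abundant at a mean of 72.2 TPM (log2 ratio -0.68) and Tubgcp5 at -1.21, whereas Tubg1 was higher. Per spike-in, 2 were higher and 1 lower (median -0.08), and Tubgcp4 was at 0.16. Of 18 tubulin modification genes with a mean of 1 TPM or more, 4 were higher and 6 lower (median -0.35), and 6 were higher and 2 lower when divided by the spike-ins (median 0.24). Svbp, a cofactor of the detyrosinating vasohibins, had the highest mean at 367.9 TPM and a log2 ratio of 0.01, while the vasohibin genes Vash1 and Vash2 had means of 0.126 and 1.07 TPM. Hdac6, a tubulin deacetylase, was higher (19.2, 62.7 and 70.3 TPM), and the deglutamylase gene Agbl4 lower (11.1, 6.26 and 0.204 TPM). Of 23 genes for microtubule-associated and destabilising proteins 9 were higher and 7 lower (median 0.11), and 12 were higher and 4 lower when divided by the spike-ins (median 0.89). Stmn1, which sequesters tubulin dimers, had the highest mean at 695.7 TPM with a log2 ratio of 0.11, Map1b was higher (1.08, 17.3 and 43.8 TPM, log2 ratio 4.43), as was the minus-end binding gene Camsap3 (17.96, 56.5 and 100.2 TPM), and the plus-end binding gene Mapre3 was lower (63.9, 33.2 and 15.3 TPM). Of 6 other tubulin genes with a mean of 1 TPM or more 2 were higher and 2 lower (median -0.18; 2 and 1, with a median of 0.31, when divided by the spike-ins), with Tubg2 at means of 0.134, 1.09 and 8.19 TPM and Tube1 at 22.6, 13.3 and 8.07 TPM. The counts in TPM are to be read against the 27% of all genes higher and 36.6% lower between clusters 3 and 1.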

How the data were processed

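Smart-seq2 libraries with ERCC spike-ins had been made from single germ cells of ovaries at D0.5. The authors checked reads with FastQC and quantified them with Salmon, per the submitters' processing notes, against mm10 with the spike-ins, and deposited TPM and estimated counts per gene symbol for each library, estimated counts without normalization. TPM include mitochondrial genes and spike-ins. Whether counting used strand is not given in the sources used here, and Smart-seq2 does not mark it.

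The 10 members and the lists were chosen with earlier results of these data known. Libraries whose log2(TPM + 1) correlated above 0.95 were joined by their mean, and cells with Ddx4 below 1 TPM left out. Cells were clustered on TPM with Seurat 5.3.0 under R 4.3.3, using 20 feature genes (the markers in the study's text, and Taf4b), 10 components and 20 neighbours; at a resolution of 0.2, the smallest tried to do so, 3 clusters formed. Ratios are log2 of mean TPM + 1 (pseudocount 1); over 1.5-fold counts as higher or lower, since cells are not replicates and no test applies. Coding genes came from GENCODE M21 and RefSeq symbols. Usage is a member's percentage of the summed TPM of its family's listed members. The share of a coding transcript was solved from the gene length listed in each cell, which was taken as the TPM-weighted mean of the lengths of 2 transcripts, with the coding one entered at 0.5 times its length. This formula was fitted to the listed lengths, and the authors' own is not given in the sources used here. The share, linear in the listed length, was compared with the length implied by reads and TPM (Pearson r 0.98 in Tuba1b, 0.97 in Tuba1c, 0.94 in Tubg1 and 0.67 in Tubb4b, across libraries), which does not check the formula. Genes named are the members, for each list those of highest mean and largest ratio, and for members with a mean of 10 TPM or more the 3 genes of highest Spearman rho; the TRiC group (Tcp1 and Cct6a among it) and Ttc5, Scaper, Hdac6, Camsap3, Mapre3, Vash1, Vash2, Tbcb, Arl2 and Cct2 were named after their values were seen. Shares of cells carry Clopper-Pearson intervals at 95%, which reflect counting error alone. Python 3.11.15, pandas 2.3.3, NumPy 2.4.6 and SciPy 1.17.1 were used, and calculations were tested on simulated data. Alternatives were estimated reads, other denominators, scalings, pseudocounts, clusters and cells; keeping the paired libraries separate, coding transcripts alone, and leaving out the 4 cells highest in Tuba1b and Tuba1c were chosen after seeing the data. Tail sequences of some members are not reported here.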

Additional observations from a re-analysis of the deposited data

How the results depend on the processing

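No paired analysis was possible because all cells form 1 group and no result comes from a test. Of 668 recomputed values for 99 results, 573 stayed within the spread or fold that was allowed, 90 moved by more, and 5 that had been past 1.5-fold turned direction. Another 28 values that had not been past it, or that are shares, changed sign, so that 33 changed sign in all, 14 of them with clusters from variable genes and 12 per spike-in. For shares the allowance was 1 SD between cells, which is wide, so ranges are given. The median share of Tuba1b (49.6%) ran from 41.8 to 53.3% and that of Tuba1c (40.8%) from 35.1 to 42.2%. For Tubb4b (92.7%) the median ran from 89.5 to 92.75%. As shares of the TPM pooled over cells, the 3 genes had 47.1, 50.4 and 87.9%, so that Tuba1c was there ahead of Tuba1b. The difference in median share between clusters 3 and 1 ran from -62.2 to -54.0 points for Tuba1b (-55.4), from 52.9 to 57.6 for Tuba1c (55.97), from -19.3 to -10.3 for Tubb4b (-13.3), for Tubb5 (6.89) from 4.94 with Ward clusters to 11.4 with estimated reads, for Tubb2b (2.29) from 1.73 to 3.14 and for Tubb2a (1.99) from 0.136 with Ward clusters to 2.62 without the 4 cells highest in Tuba1b and Tuba1c. Log2 ratios between clusters 3 and 1 moved as follows, and the cause was not tested. For Tuba1b (2.33) the value was 1.62 with CPM, 1.11 with coding transcripts, 1.28 without the 4 highest cells and 1.71 to 2.59 with each cell left out. For Tuba1c (6.93) it was 5.15 with clusters from variable genes and 6.11 without the 4 cells. For Tubb5 (1.82) it was 2.62 as a difference of mean log2, 2.66 with CPM and 2.68 per spike-in. Per spike-in Tubb4b was at 0.94 and Tubg1 at 1.37. With clusters from variable genes 3 ratios past 1.5-fold turned, namely Tuba4a between 2 and 1 (0.67), Tubb3 between 2 and 1 (-0.22) and Tubb5 between 3 and 2 (-0.17). Of ratios that had been below 1.5-fold, the sign also changed under those clusters for Tuba1a (0.18) and Tubb4b (0.60, then past 1.5-fold) between 2 and 1, and for Tubb3 (0.54), Tubb4b (-0.39) and Tubg1 (-0.41) between 3 and 2. Per spike-in the medians of autoregulation genes between 3 and 1 (0.0198) and of modification genes between 3 and 2 (0.20) turned. Medians that had been below 1.5-fold and changed sign per spike-in were those of modification genes (0.24), folding genes (0.72) and other tubulins (0.31) between 3 and 1, of folding genes (-0.12) and the ring complex (-0.41) between 2 and 1, and of the ring complex (0.54), folding (0.91), autoregulation (0.71) and microtubule-associated genes (0.98) between 3 and 2.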
